A study of Homo sapiens with 6 samples.

Results

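The p53 target genes other than p21 described here are MDM2, PPM1D, DDB2, XPC, POLH, RRM2B, TP53I3, FDXR, TP53INP1 and ZMAT3, taken by symbol from the deposited table. Each of these 10 symbols stood on a single row among 57820 annotated genes, and all 10 reached the count minimum for testing. The libraries hold polyadenylated RNA of U2OS cells, an established human osteosarcoma line, after 4 h with 5 µM NMS-873 (3 libraries) or with 0.05% DMSO, its solvent (3 libraries). NMS-873 acts at an allosteric site of VCP (p97), the ATPase that pulls ubiquitylated proteins out of complexes and membranes. No genotype differed between the groups, and the comparison asked whether p53 targets moved in the direction that p53 activation gives. The study used 1 dose, 1 time and 1 cell line, and no label ties the libraries to separate cultures, so the spread behind each p-value is that of these libraries and may be technical.

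p53 is a transcription factor that is made and degraded continuously; the ubiquitin ligase MDM2 marks it for the proteasome. Under DNA damage or other stress p53 builds up, binds a motif of paired half-sites and raises the transcription of genes for cell cycle arrest, DNA repair, metabolism and cell death, and of MDM2 itself, which closes a negative feedback loop. U2OS cells are known to carry a truncated allele of the phosphatase gene PPM1D and to have silenced CDKN2A, whose product ARF restrains MDM2. CDKN2A was at 0 reads in all 6 libraries.

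Libraries held between 21132311 and 22488952 reads in annotated genes, and spike-in RNA took 0.359% to 0.386% of the reads. NMS-873 replicate 1 stood apart from the other 2 treated libraries: a chi-square of read counts over genes, divided by its degrees of freedom, was 7.36 and 7.81 for pairs with it and 1.79 for the other pair. Among the controls it was 3.56 and 3.63 for pairs with DMSO replicate 3 and 1.53 for the other pair. Mesenchymal genes of the line were present. Their summed level over 8 markers was 142030 to 145600 normalised counts with DMSO and 120920 to 126560 with NMS-873. COL1A1, VIM and SPARC held most of it, with DMSO means of 48278, 47682 and 46626. The mean of MSX2 was higher with NMS-873 (72.1 to 94.4), and those of the other markers were lower, RUNX2 going from 228 to 117. Of these markers COL1A2 lay under the count minimum. Epithelial markers summed to 385 to 424 normalised counts with DMSO and 284 to 309 with NMS-873. Most of that was CLDN4, with means of 294 and 189. Of 4 blood markers CD3E was at 0, and the list summed to 9.51 to 20.6 with DMSO and 4.89 to 17.0 with NMS-873. Endothelial markers (3 of 4 with a row) summed to 33.9 to 47.5 with DMSO and 44.5 to 65.6 with NMS-873. Most of that was VWF, with means of 20.1 and 36.4. The part of these differences in the results below was not tested.

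The 10 p53 targets did not move together. MDM2, RRM2B and PPM1D rose with NMS-873, by 1.29-fold, 1.25-fold and 1.14-fold. POLH, TP53I3 and DDB2 fell, by 1.42-fold, 1.24-fold and 1.13-fold. XPC, FDXR, TP53INP1 and ZMAT3 did not pass the test. The calls are those of limma at an adjusted p of 0.05, over the 14889 genes whose mean normalised count reached 10. By that rule 6 of 10 targets were called, against 47.9% of all genes tested; 3 were higher against 14.9% of all genes, and 3 were lower against 33.0%. The median log2 fold change of the 10 was -0.04, and that of all genes tested was -0.10. A normalised count is a read count divided by a size factor that the authors took from the spike-in RNA. On that scale 2217 genes were higher and 4910 lower, whereas with factors taken from the genes themselves 3760 were higher and 3108 lower, and the median gene was at 0.00. With the factors from genes, where 25.3% of all genes were higher and 20.9% lower, 4 targets were higher and 2 lower: FDXR joined the higher calls and DDB2 left the lower ones. In bulk RNA a change in the level per cell and a change in the share of cells that express a gene cannot be told apart.

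**Figure D1:**
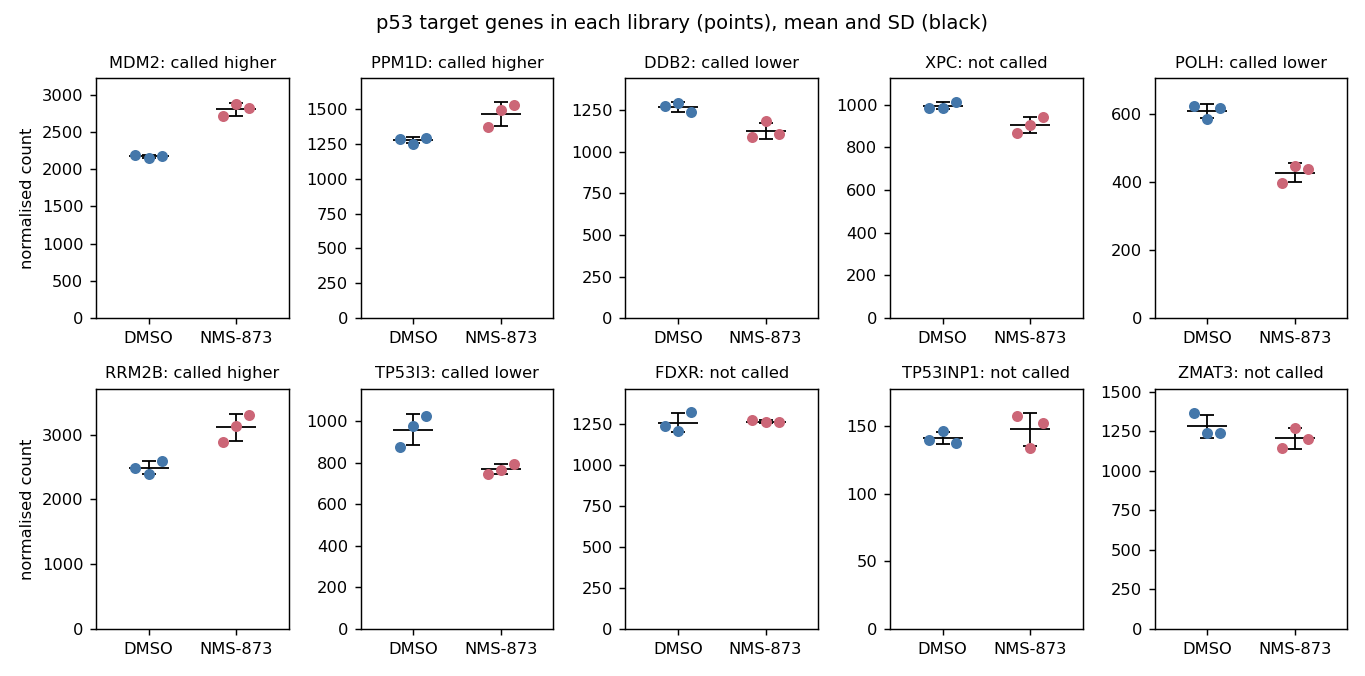
Normalised counts (y axes, from 0) of the 10 p53 target genes with DMSO (blue) and NMS-873 (red); points are libraries, black bars the mean and SD of 3. All 3 treated libraries lie above all 3 control libraries for MDM2, PPM1D and RRM2B, and below them for DDB2, XPC, POLH and TP53I3. Such a separation, in either direction, was seen for 53.6% of all genes tested.

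MDM2 and PPM1D, which encode negative regulators of p53, both rose. TP53INP1, described below, also acts on p53 and did not pass. MDM2 (ENSG00000135679.17; chromosome 12, 69201956 to 69239214, plus strand, hg19) encodes the ligase that ubiquitylates p53. DMSO replicates 1 to 3 read 2196, 2152 and 2172 normalised counts, and NMS-873 replicates 1 to 3 read 2709, 2876 and 2821. The controls lay within a narrow band and every treated library was above them. The means were 2173 ± 21.9 and 2802 ± 85.25 (SD, n = 3 libraries each), a log2 fold change of 0.37 (SE 0.0541, limma adjusted p = 1e-09). This difference was higher than that of 92.1% of all genes tested. PPM1D (ENSG00000170836.7; chromosome 17, 58677544 to 58741849, plus strand) encodes WIP1, a phosphatase that removes activating phosphates from p53 and from the kinases upstream of it. It had 1288, 1252 and 1294 normalised counts in the controls and 1368, 1494 and 1529 in the treated libraries. The lowest treated library was close to the highest control, and the groups did not overlap. PPM1D averaged 1278 ± 22.5 and 1464 ± 84.2 normalised counts (n = 3 each), a log2 fold change of 0.19 (SE 0.0574, limma adjusted p = 0.0027), or 0.30 with the factors from genes.

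MDM2 is transcribed from 2 promoters, and the second, inside the gene, is the one known to respond to p53. The counts here are per gene and do not tell the promoters apart, so which of them the rise came from was not tested. To show what the promoters of these genes hold, RefSeq windows of 300 bases around start sites (250 before, 50 after, GRCh38.p14) were searched for the p53 consensus: 2 half-sites of 10 bases, with a spacer of at most 1 base. The consensus is its own reverse complement, so both strands are read together. Windows were found for 8 of the 10 genes; RRM2B and TP53INP1 had none in the table. DDB2 had a match with 0 mismatches, which 0.0256% of 27305 genes reach in their windows. MDM2 had 2 mismatches, a number that 1.69% of genes reach or better, and XPC and FDXR had 3, reached by 11.9% of genes. Each gene counts by its best window, and more windows give more places to match. MDM2 had 4 windows, DDB2 and FDXR 2 each and XPC 1, and the shares are not matched for this. The 4 closest matches are given below with 4 bases on each side; capitals mark bases of the half-sites that fit the consensus.
MDM2: agctGGtCAAGTTCAGACAcGTTCcgaa
DDB2: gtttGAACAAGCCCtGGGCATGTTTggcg
XPC: agtgGAAtTTGCCCAGACAAGCaacatg
FDXR: gcccGGGCAgGagCGGGCTTGCCCtgcg

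The MDM2 match lies at chr12:68808923-68808942 on the plus strand, 94 bases before a RefSeq start site. The DDB2 match, with a spacer of 1 base, lies at chr11:47214979-47214999 on the plus strand, just past a start site. The XPC match is at chr3:14178570-14178589 on the minus strand, also past the start site, and the FDXR match at chr17:74872996-74873015 on the minus strand, 21 bases before one. Apart from DDB2, FDXR was the only one of the 8 with an exact half-site, which 8.06% of genes have in their windows. The best matches of PPM1D, ZMAT3, TP53I3 and POLH had 4, 4, 5 and 6 mismatches, and 46.1% of genes have one with at most 4. A match describes these letters and does not show binding. Of the 2 genes with the closest matches, MDM2 rose and DDB2 fell. The second MDM2 promoter holds another match with 3 mismatches, at chr12:68808961-68808980, close downstream of the first. Both stand in capitals in the 235 bases before the first exon base there (chr12:68808767-68809001, plus strand, no GENCODE 29 exon within).
MDM2 second promoter: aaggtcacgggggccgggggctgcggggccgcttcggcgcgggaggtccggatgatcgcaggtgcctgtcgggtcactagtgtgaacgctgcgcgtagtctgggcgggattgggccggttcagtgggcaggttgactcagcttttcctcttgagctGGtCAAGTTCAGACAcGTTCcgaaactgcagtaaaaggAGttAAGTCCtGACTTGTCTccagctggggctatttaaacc

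Among the DNA repair members, POLH and DDB2 fell, XPC did not pass and RRM2B rose. POLH (ENSG00000170734.7; chromosome 6, 43543887 to 43586701, plus strand) encodes polymerase eta, which copies past ultraviolet lesions. Its control libraries read 624, 586 and 618 normalised counts and its treated libraries 397, 449 and 438.5. Every treated library was far under every control. The means were 609 ± 20.7 and 428 ± 27.6 normalised counts (n = 3 each), a log2 fold change of -0.51 (SE 0.0707, limma adjusted p = 8.07e-11), the largest difference of the 10 on the spike-in scale, lower than that of 88.5% of all genes tested. With the factors from genes POLH was at -0.41 and MDM2, at 0.47, was further from 0. RRM2B (ENSG00000048392.7; chromosome 8, 103216730 to 103251346, minus strand) encodes the p53-induced subunit of ribonucleotide reductase, which supplies deoxynucleotides for repair. Its libraries read 2484, 2389 and 2591 normalised counts with DMSO and 2892, 3129 and 3308 with NMS-873, so the groups were apart. RRM2B averaged 2488 ± 100.8 and 3110.0 ± 208.8 normalised counts (n = 3 each), a log2 fold change of 0.32 (SE 0.0544, limma adjusted p = 9.76e-08).

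DDB2 (ENSG00000134574.7; chromosome 11, 47236493 to 47260767, plus strand) and XPC (ENSG00000154767.10; chromosome 3, 14186647 to 14220283, minus strand) encode the damage sensors that open nucleotide excision repair. DDB2 control libraries read 1274, 1294 and 1237 normalised counts and treated libraries 1087, 1182 and 1105. The groups did not overlap, with means of 1269 ± 28.7 and 1124 ± 50.4 (n = 3 each) and a log2 fold change of -0.17 (SE 0.0584, limma adjusted p = 0.00846). That call ended with the factors from genes, where its log2 fold change was -0.07 (limma adjusted p = 0.218); TMM factors gave -0.06 (adjusted p = 0.268). XPC control libraries read 986, 983 and 1013 normalised counts and treated libraries 867, 904 and 941, again without overlap. Groups did not overlap for 53.6% of all genes tested. The XPC means of 994 ± 16.5 and 904 ± 37.0 differed by -0.14 on the log2 scale, with a 95% interval of -0.26 to -0.02, and did not pass (limma adjusted p = 0.0512). It passed with the test voom on rebuilt reads (adjusted p = 0.0495), so this value sits at the threshold. Scaled to the genes, the XPC difference was -0.03. Relative to the median gene at -0.10, DDB2 and XPC differed by -0.07 and -0.03, so most of their difference was shared with the typical gene under spike-in scaling.

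TP53I3 and FDXR encode oxidoreductases. TP53I3 (PIG3; ENSG00000115129.9; chromosome 2, 24300303 to 24308731, minus strand) makes a quinone reductase tied to oxidative stress and p53-dependent cell death. Its control libraries read 875, 977 and 1022 normalised counts and its treated libraries 747, 763.5 and 794. The controls were more spread than the treated libraries, and all of them were higher. Its means were 958 ± 75.3 and 768 ± 24.1 (n = 3 each), a log2 fold change of -0.32 (SE 0.0625, limma adjusted p = 4.97e-06), or -0.21 with TMM factors. FDXR (ENSG00000161513.7; chromosome 17, 72858619 to 72869156, minus strand) encodes ferredoxin reductase, which passes electrons to mitochondrial ferredoxins. Its control libraries read 1242, 1211 and 1326 normalised counts and its treated libraries 1276, 1263 and 1263, and the treated libraries lay inside the range of the controls. The log2 fold change was 0.01, with a 95% interval of -0.11 to 0.12 (limma adjusted p = 0.907). With the factors from genes FDXR passed at 0.11 (adjusted p = 0.0283), and TMM factors gave 0.12 (adjusted p = 0.0205).

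TP53INP1 and ZMAT3 did not pass. TP53INP1 (ENSG00000164938.9; chromosome 8, 95938200 to 95961639, minus strand) encodes a nuclear cofactor that promotes p53 phosphorylation and also acts in autophagy. It had the fewest reads of the 10, between 136 and 157 in a library. Its values were 140, 146 and 138 normalised counts with DMSO and 157, 134 and 152 with NMS-873, with overlap. The log2 fold change of 0.06 had a 95% interval of -0.15 to 0.28 (limma adjusted p = 0.672), so a rise as large as that of PPM1D lies within it; it was 0.16 with the factors from genes. ZMAT3 (ENSG00000172667.6; chromosome 3, 178735011 to 178790067, minus strand) encodes a zinc finger protein that binds RNA and regulates splicing and transcript stability. Its control libraries read 1368, 1239 and 1241 normalised counts and its treated libraries 1144, 1272 and 1200. These groups overlapped through NMS-873 replicate 2. The log2 fold change was -0.09, with a 95% interval of -0.20 to 0.02 (limma adjusted p = 0.199), and it was 0.01 when scaled to the genes.

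**Figure D2:**
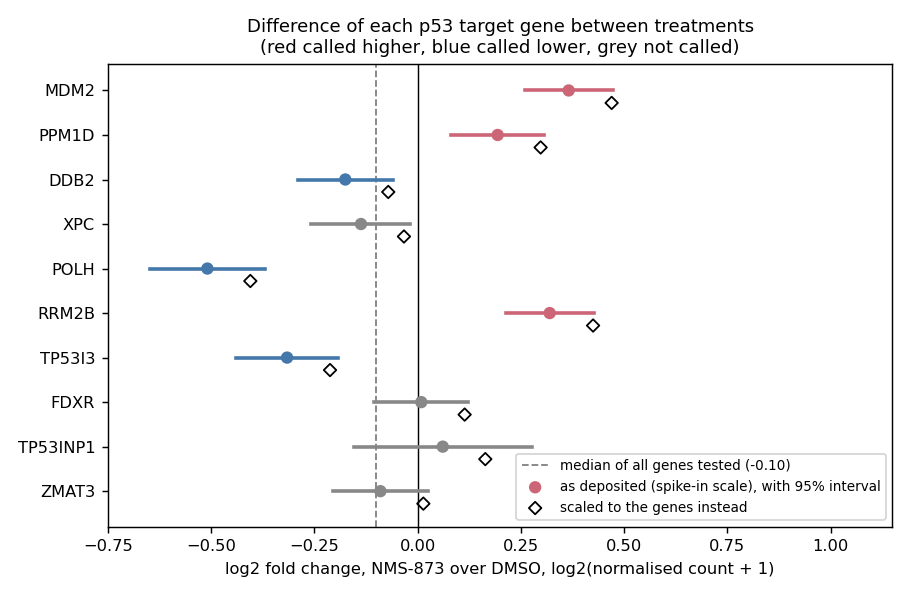
Log2 fold change (x axis, NMS-873 over DMSO) of each of the 10 genes on the deposited scale with its 95% interval (filled points and bars), and with libraries scaled to the genes instead (open diamonds). Every diamond lies right of its point, and the DDB2 interval reaches past the dashed line at -0.10, the median of all genes tested.

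In the authors' deposited table the same 6 genes have an adjusted p under 0.05, with DDB2 the nearest to it (adjusted p = 0.0217), and XPC is at adjusted p = 0.109. The share of all genes under that threshold by the authors' values was not counted here. Both analyses use the same libraries, so the authors' calls are no independent evidence. Per length, the control levels spanned from 31.4 FPKM for DDB2 to 1.14 FPKM for TP53INP1. RRM2B (20.5 FPKM), TP53I3 (18.97) and PPM1D (18.0) came after DDB2 with DMSO; RRM2B overlapped TP53I3 and TP53I3 overlapped PPM1D. FDXR followed at 16.02 FPKM, MDM2 at 12.4, XPC at 9.48, POLH at 7.61 and ZMAT3 at 6.09, none of them overlapping its neighbour. With NMS-873 some neighbours came to overlap and others moved apart. DDB2 at 27.9 FPKM and RRM2B at 25.7 FPKM then overlapped, as did FDXR (16.1) with MDM2 (15.99) and MDM2 with TP53I3 (15.2). POLH at 5.35 FPKM stood under ZMAT3 at 5.72, with overlap. TP53I3 no longer overlapped RRM2B or PPM1D (20.6 FPKM).

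CDKN1A, which encodes the arrest protein p21 and is the best known p53 target, differed more than any of the 10. Its level went from 3040 ± 207 normalised counts to 7894 ± 369 with NMS-873 (n = 3 each), a 2.6-fold rise (log2 fold change 1.38, SE 0.0544, limma adjusted p = 3.29e-69). The p53 protein was not measured here.

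A wider list of p53 targets was divided in the same way. Of 33 other targets 28 were tested. Of these 10 rose and 7 fell, where 14.9% of all genes were higher and 33.0% lower. The other 11 did not pass, so 60.7% were called, against 47.9% of all genes. The median log2 fold change of the 28 was -0.03, against -0.10 for all genes tested. With the factors from genes 13 were higher and 5 lower, where 25.3% of all genes were higher and 20.9% lower. PLK3, a stress kinase, rose from 579 ± 40.5 to 1261 ± 37.7 normalised counts (log2 fold change 1.12). EDA2R, a receptor of the tumour necrosis factor family, rose from 559 ± 9.24 to 1012 ± 13.7 (0.86 on the log2 scale). FAS, the death receptor, rose from 490.2 ± 23.98 to 727 ± 18.9 (0.57), and BTG2, an antiproliferative factor, from 518 ± 17.4 to 717 ± 51.0 (0.47). PLK2, a kinase related to PLK3, moved the other way, from 4064 ± 176 to 1999 ± 82.5 normalised counts (log2 fold change -1.02). APAF1, the scaffold of the apoptosome, fell from 344 ± 10.4 to 219 ± 18.4 (-0.65), PIDD1, a death domain protein, from 347 ± 31.6 to 267 ± 3.85 (-0.38), and NINJ1, a membrane protein, from 757 ± 25.9 to 619 ± 24.8 (-0.29). With the factors from genes NINJ1 was at -0.19.

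Some p53 targets are also known as targets of ATF4 or CHOP, transcription factors of the integrated stress response, and were listed apart. All 7 of them rose, where 14.9% of all genes did, and their median difference was 1.34 (log2), on a list that was chosen with earlier results of these data known and is no independent evidence. SESN2, a brake on mTORC1, rose by 3.56 on the log2 scale and ATF3, a stress transcription factor, by 4.02. GDF15, a secreted stress factor, was low: its mean of 16.2 ± 4.99 normalised counts became 109 ± 15.4 with NMS-873 (log2 fold change 2.70). PMAIP1 and BBC3, which encode the death activators NOXA and PUMA, rose by 1.34 and 1.22. GADD45A, a damage-induced stress protein, rose by 1.24, and TNFRSF10B, the death receptor DR5, by 0.99. The lowest of these differences exceeded that of MDM2, the largest rise among the 10 (0.37); whether the lists differ was not tested.

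**Figure D3:**
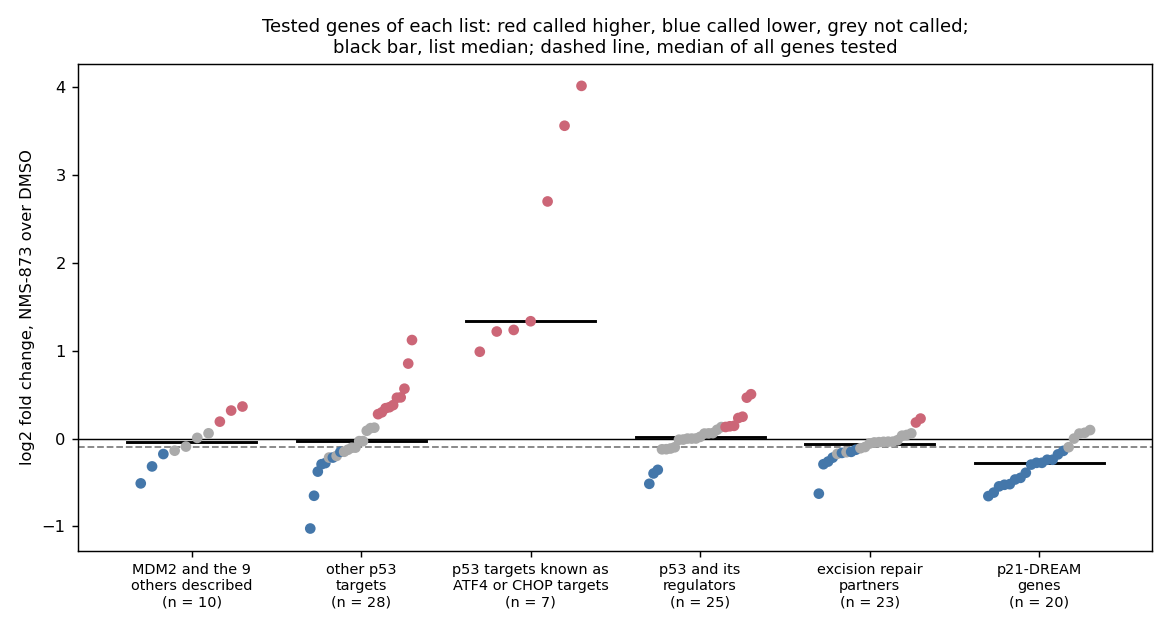
Log2 fold change (y axis, NMS-873 over DMSO) of each tested gene in 6 lists, ordered by value within a list; n is the number tested, the black bar the list median and the dashed line the median of all genes tested. The 10 p53 targets lie between -0.51 and 0.37, while the 7 known as ATF4 or CHOP targets lie between 0.99 and 4.02.

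Regulators of p53 were mixed as well. Of 25 tested, 7 rose and 3 fell, where 14.9% of all genes were higher and 33.0% lower. The median difference of the 25 was 0.02 (log2), against -0.10 for all genes tested, and 40.0% were called against 47.9%. MDM4, the partner of MDM2 that masks the p53 activation domain, rose from 642 ± 38.2 to 888 ± 35.8 normalised counts (log2 fold change 0.47). PPP1R13B (ASPP1), which steers p53 to death genes, rose by 0.51, USP10, a deubiquitylase of p53, by 0.24, and TRIM24, a ligase of p53, by 0.25. ATR, the replication stress kinase, fell by 0.51 on the log2 scale, PPP1R13L (iASPP, an inhibitor of p53) by 0.40, and TP73, a p53 relative, by 0.36. Scaled to the genes 13 rose and 3 fell, where 25.3% of all genes were higher and 20.9% lower. On the spike-in scale the regulators' higher count was 4 without DMSO replicate 1 or without DMSO replicate 2.

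Genes that work beside the repair members were called in a share near that of all genes. Of 23 partners in excision repair, translesion synthesis and nucleotide reduction 2 rose and 7 fell, where 14.9% of all genes were higher and 33.0% lower. Thus 39.1% were called against 47.9% of all genes, with a median log2 fold change of -0.05 against -0.10. ERCC4, a subunit of the repair nuclease that cuts 5′ of a lesion, fell from 503 ± 12.5 to 326 ± 20.9 normalised counts (log2 fold change -0.63). RPA2 and RPA3, subunits of the single-strand binding protein, fell by 0.29 and 0.16, and ERCC1, the partner of ERCC4, by 0.15. With the factors from genes RPA2 was at -0.19, and the RPA3 and ERCC1 calls ended, at -0.06 (limma adjusted p = 0.221) and -0.05 (adjusted p = 0.295). The RPA3 call also ended without DMSO replicate 3 (-0.11), and the ERCC1 call when NMS-873 replicate 1 (-0.11) was left out, or from the controls replicate 1 (-0.14) or 3 (-0.13). CETN2, which binds XPC, rose by 0.23, and POLK, another translesion polymerase, by 0.18. The POLK call ended when replicate 1 of DMSO (0.17) or of NMS-873 (0.11) was left out, and its value was 0.29 with the factors from genes. DDB1, the partner of DDB2, was at 9820 ± 305 and 9596 ± 374 normalised counts (log2 fold change -0.03), and RRM1 and RRM2, the other reductase subunits, were at -0.04 and 0.03; none of the 3 passed, and they were named after their values were seen. Scaled to the genes 5 rose and 2 fell, where 25.3% of all genes were higher and 20.9% lower. The lower count was 4 when DMSO replicate 2 was left out, and 3 when DMSO replicate 3 or NMS-873 replicate 1 was; the higher count was 1 when either replicate 1 was left out.

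Genes that p53 lowers indirectly, through p21 and the DREAM repressor complex, were mostly lower. Of 20 tested, 15 fell and 0 rose in limma, where 33.0% of all genes were lower and 14.9% higher. Thus 75% were called, against 47.9%, and their median log2 fold change was -0.28, against -0.10. At the same threshold voom also gave 15 and 0, and 0 rose at an unadjusted p under 0.05 in limma. PLK1, a mitotic kinase, fell from 2888 ± 161 to 1834 ± 29.6 normalised counts (log2 fold change -0.65), and MKI67, the proliferation marker Ki-67, from 3822 ± 381 to 2522 ± 509.9 (-0.61). BUB1, a spindle checkpoint kinase, fell by 0.54 and CCNA2, cyclin A, by 0.52. Among those that did not pass were CDC25C (0.07), MCM5 (-0.10), CHEK1 (0.00) and E2F1 (0.10), named after their values were seen. Scaled to the genes 13 fell and 2 rose, where 20.9% of all genes were lower and 25.3% higher. On the spike-in scale the higher count of the list was 1 without NMS-873 replicate 1.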

How the data were processed

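The submitters deposited 1 table of 57912 rows, 92 of them spike-in RNA. Sample columns hold FPKM, by the authors; the table also holds the deposited mean normalised count (a signal in reads after scaling), and the authors' log2 fold change and adjusted p-value. The submitters' processing notes name build hg19, featureCounts 1.5.1 and DESeq2 1.16.1; an aligner and strand setting are not given in the sources used here. FPKM was turned back into normalised counts with the deposited mean; 100% of them, times the size factor, were within 0.001 of a whole read. The size factors are those of 53 spike-in rows by median of ratios, so a change in RNA content or an error in spike-in amount moves all genes.

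Tests ran in R 4.3.3 with limma 3.58.1 for 14889 genes whose mean normalised count reached 10. Values were log2(normalised count + 1), which understates changes of low genes; the model held treatment alone, with a variance trend on intensity, two-sided tests and Benjamini-Hochberg adjustment over all genes tested. The prior variance had 250.84 degrees of freedom, so each gene's spread came mostly from genes of similar level. Counting error is a lower limit, since reads carry no molecular identifiers. Alternatives were other scalings, pseudocounts, count minimums and variance models, voom, a replicate block and leaving out each library. Members and lists were chosen with earlier results of these data known. Genes named are the 10 members, CDKN1A and MDM4, every ATF4 or CHOP list member, and in other pathway lists up to 4 called members per direction with the lowest adjusted p; any other gene was chosen with its values in view. Of the list genes, 1 endothelial marker had no row and was not analysed here. Single values of some list genes are not reported here, though the list counts and sums include them.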

Additional observations from a re-analysis of the deposited data

How the results depend on the processing

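MDM2, PPM1D, RRM2B, POLH and TP53I3 kept their direction and their call in all 17 settings, with log2 fold changes of 0.35 to 0.48, 0.16 to 0.30, 0.27 to 0.43, -0.54 to -0.40 and -0.38 to -0.21; the highest adjusted p was 0.0465, for PPM1D without the variance trend. DDB2 was no longer called with median-of-ratios factors over genes (-0.071) and with TMM factors (-0.064). XPC passed with equal totals (-0.134), a count minimum of 50 (-0.137), voom (-0.138) and the replicate block (-0.137), and without NMS-873 replicate 3; leaving out each library gave -0.167 to -0.108. FDXR passed with median-of-ratios (0.114) and TMM factors (0.120), and leaving out each library gave -0.018 to 0.047. ZMAT3 changed sign with both factors (0.014 and 0.021).

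With median-of-ratios factors 3760 genes were higher and 3108 lower, and with TMM factors 3869 and 2998. With median-of-ratios factors the median gene moved from -0.10 to 0.00. The cause of the changes between settings was not tested. Of the other p53 targets 4 were lower with TMM factors. Of the p53 regulators 13 were higher with median-of-ratios factors, 14 with TMM, 4 without the variance trend and 4 to 9 leaving out each library; 6 were lower with equal totals and 5 with the replicate block. Of the p21 and DREAM genes 2 were higher with median-of-ratios factors, 3 with TMM and 0 to 1 leaving out each library. Of the excision repair partners 5 were higher and 2 lower with median-of-ratios factors, 6 and 2 with TMM, 1 and 4 on log2(FPKM + 0.1), 1 and 3 without the variance trend, and 1 to 2 and 3 to 7 leaving out each library.

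Deviations of same-numbered libraries correlated at 0.0394, -0.0253 and 0.0425, and those of differently numbered libraries at -0.0716 to 0.035. With 3 libraries per group these values cannot decide whether libraries of the same number were handled as pairs. With the replicate block 2352 genes were higher and 5255 lower, against 2217 and 4910 without it. Of the members 3 were then higher and 4 lower.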
